A study of Mus musculus with 7 samples.

Results

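Pax3, Erbb3, Cdh19, Pmp22, Kitl and Edn1 are genes of the melanocyte and Schwann cell lineages or of the signals those cells receive. They were taken by name: every probe set whose platform annotation gives 1 gene symbol, that symbol being 1 of the 6, was used. All 6 were found, with 84 of the 53644 probe sets and as 6 of the 5017 genes of the table. Of these 5017 genes 4918 lie on chromosomes 1, 10, 11, 12 and 13. Shares of all genes or all probe sets given below are shares of this table and not of the whole genome. A listed gene counts as measured where the table holds a probe set with its symbol alone. The series measured total RNA of retinal pigment epithelium (RPE), the pigmented layer behind the photoreceptors, dissected from mouse pups at postnatal day 5, on 7 Affymetrix arrays. The 3 Dicer1-deficient arrays came from mice with Dicer1loxP/loxP and Dct-Cre, a Cre recombinase driven by the promoter of the pigment enzyme gene dopachrome tautomerase, and the 4 control arrays from pups of the same kind of cross (Dicer1 flox/+ with Dct cre, mated to flox/flox), with a genotype that the labels leave unstated. The DICER1 enzyme makes mature microRNAs by cutting their hairpin precursors. The comparison of the groups asks how RNA levels differ in RPE dissected from mice in which Cre removes floxed Dicer1.

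Melanocytes and Schwann cells both come from the neural crest, whereas the RPE comes from the neuroepithelium of the optic cup. In crest cells the transcription factor PAX3 works with SOX10 to switch on the pigment cell regulator gene Mitf, the receptor ERBB3 pairs with ERBB2 to receive neuregulin from axons, and cadherin 19 marks Schwann cell precursors and ganglion glia. PMP22 is a membrane protein of compact myelin that other tissues make too. KIT ligand and endothelin 1 are secreted or membrane-bound signals made by surrounding cells, so Kitl and Edn1 are not markers of the crest cells themselves. The choroid next to the RPE holds crest melanocytes and nerves, and the Dct promoter is active in melanoblasts as well as in RPE, so the genotype does not confine a change to RPE cells. In such bulk samples, fewer cells of a type and less RNA per cell cannot be told apart.

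MicroRNAs of the kind that Dicer1 makes have been described as repressors of several of these genes, and 4 of them are shown because each names a member that the comparison below measures. MiR-206 and miR-27b were described for Pax3 in mouse muscle progenitors, miR-205 for ERBB3 in human breast cancer cells and miR-29a for PMP22 in rat Schwann cells. The mature sequences are those of RefSeq on GRCm38.p6, 5′ to 3′, with the seed (bases 2 to 8) in capitals, and no 2 of them share a seed.
mmu-miR-206-3p, for Pax3, at chr1:20679055-20679076 on the plus strand: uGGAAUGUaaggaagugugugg
mmu-miR-27b-3p, for Pax3, at chr13:63300760-63300780 on the plus strand: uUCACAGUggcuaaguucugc
mmu-miR-205-5p, for Erbb3, at chr1:193507503-193507524 on the minus strand: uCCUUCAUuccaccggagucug
mmu-miR-29a-3p, for Pmp22, at chr6:31062673-31062694 on the minus strand: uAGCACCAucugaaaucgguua
Levels of these microRNAs were not analysed here, so the sequences name the regulators and say nothing about their amount in these samples.

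The values are log2 signals, and their overall median was 6.22. Control 4 stood apart from the other arrays, with a Pearson correlation across all probe sets of 0.942 to 0.951 with each of them and a median signal of 6.05, against 6.22 to 6.26 in the other 6 arrays, and results are therefore also given without it. The targeted gene read 10.57 ± 0.13 (SD, n = 3) in Dicer1-deficient and 10.62 ± 0.26 (SD, n = 4) in control arrays at its brightest probe set. The floxed stretch of Dicer1 is not named in the labels, so this level does not check the genotype. The labels also do not say whether each array is a different animal, and the p-values below reflect spread among these 7 arrays, which may be technical.

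Pax3 and Erbb3 were lower in Dicer1-deficient RPE and passed the test on 1 of the 2 summaries used throughout, while Cdh19, Pmp22, Kitl and Edn1 passed on neither. On the median of probe sets, an alternative summary, Pax3 alone passed. All 6 genes had negative differences (Dicer1-deficient minus control) at the brightest probe set and on the mean of probe sets, where 51.9% and 54.4% of all genes did. At the brightest probe set of each gene, 0 of the 6 passed limma with Benjamini-Hochberg adjusted p of 0.05, where 2.33% of the 5017 genes did. At an unadjusted p of 0.05, 2 of the 6 were lower, Pax3 and Erbb3, against 6.6% of all genes. Averaged over probe sets 4 were, with Cdh19 and Pmp22 added, against 8.43% of all genes. In 3 of the 6 (Pax3, Erbb3 and Pmp22) every Dicer1-deficient array lay below every control array, which held for 7.02% of all genes. When a gene was instead summarised by averaging its probe sets, 2 of the 6 passed and both fell, Pax3 and Erbb3, where 5.86% of all genes passed and 2.83% passed on the low side. The same 3 genes had separate groups on that average, against 8.65% of all genes. The median difference over the 6 genes was -0.24 at the brightest probe sets, where over all genes it was -0.01, and -0.30 on the mean of probe sets, where over all genes it was also -0.01. The 6 genes were chosen with earlier results of these data known, so these comparisons with all genes describe them and test nothing.

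**Figure D1:**
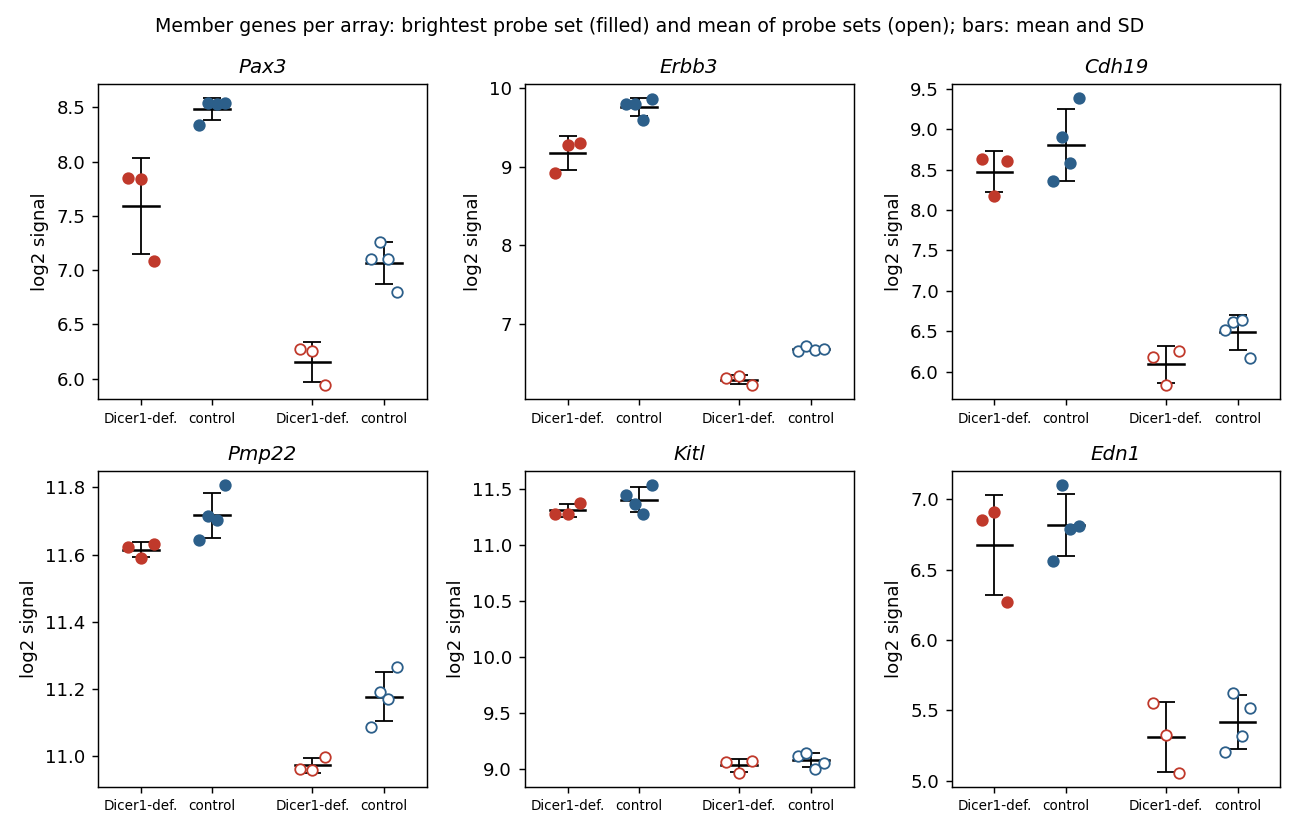
Log2 signal (vertical axis) of each of the 6 genes in every array, with Dicer1-deficient arrays in red and control arrays in blue; filled points are the brightest probe set, open points the mean of all probe sets, and bars the group mean with its SD. The groups are separate for Pax3, Erbb3 and Pmp22 with either summary, and they overlap for Cdh19, Kitl and Edn1; the vertical scales differ between panels.

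Pax3, on chromosome 1, encodes the paired-box transcription factor that keeps melanoblasts and Schwann cell precursors in an early state. At its brightest probe set (10355922) it read 7.85, 7.84 and 7.08 in the Dicer1-deficient arrays, against 8.34, 8.53, 8.53 and 8.54 in the control arrays. The groups did not overlap, and Dicer1-deficient array 3 was the lowest of all by a wide margin. The group means were 7.59 ± 0.44 (SD, n = 3) in Dicer1-deficient and 8.49 ± 0.10 (SD, n = 4) in control arrays. The log2 fold change was -0.90 (SE 0.19, 95% interval -1.35 to -0.44), that is 1.86-fold lower, with a limma adjusted p of 0.0639.

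The mean of the 13 Pax3 probe sets gave nearly the same difference, with a smaller SD in Dicer1-deficient arrays (0.19, against 0.44 at the brightest probe set) and a larger one in control arrays (0.19, against 0.10). It read 6.27, 6.26 and 5.94 in Dicer1-deficient arrays, against 7.10, 7.26, 7.10 and 6.80 in control arrays, again without overlap. Control 4 was the lowest control and Dicer1-deficient array 3 the lowest array. Its log2 fold change was -0.91 (SE 0.13, limma adjusted p = 0.00336), so Pax3 fell, and was 1.88-fold lower. This call held with any 1 array left out, at a limma adjusted p of 5.8e-04 without control 4 and at most 0.0198 without any other array. Without control 4, 17% of all genes passed and 10.3% on the low side.

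Along the gene, each of the 13 Pax3 probe sets had a negative difference, where 50.3% of all probe sets did, with values from -1.49 to -0.05 and a median of -0.91. In 10 of the 13 the groups did not overlap, where 6.62% of all probe sets were separate with the Dicer1-deficient arrays lower. Of the 84 probe sets of the 6 genes, 4 passed limma with adjustment over all 53644 probe sets, where 1.06% of all did and 0.406% on the low side, and all 4 were lower and of Pax3. The clearest, 10355919, read 6.99, 6.59 and 6.73 in Dicer1-deficient arrays, against 7.89, 7.96, 7.81 and 7.73 in control arrays. Its log2 fold change was -1.08 (limma adjusted p = 0.0157), and the lowest control stood well above the highest Dicer1-deficient array. The count of 4 rests on all 7 arrays: it was 8 for Pax3 without control 4, where 2.3% of all probe sets passed and 1.11% on the low side, 1 without Dicer1-deficient array 1 and 0 without any of the other 5 arrays.

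The last Pax3 probe set in identifier order departed from the rest. Probe set 10355930 read 5.10, 5.11 and 5.29 in Dicer1-deficient arrays, against 5.35, 5.35, 4.96 and 5.21 in control arrays, with the groups intermixed. Its level was below the overall median in both groups, detection above background was not assessed, and its neighbour 10355929, also dim, had the next smallest difference at -0.59. Relative to the other Pax3 probe sets the difference at 10355930 was higher by 0.93 on the log2 scale, which did not pass (limma diffSplice adjusted p = 0.171, with 0.241% of all probe sets called). Without control 4 it was higher by 1.02 and passed (diffSplice adjusted p = 0.00457), as did 10355917 at -0.85 (0.0287). The share of all probe sets called in that setting was not counted. The test over all Pax3 probe sets did not pass with every array (diffSplice adjusted p = 1, where 1.36% of genes passed). It did without control 4 (diffSplice adjusted p = 0.0215, where 6.8% of genes passed). A test that gives each probe set its own spread did not call 10355930 with every array (limma adjusted p = 0.42, where 0.0377% of all probe sets passed) or without control 4 (0.179, where 0.081% passed). Nor did it call 10355917 with every array (limma adjusted p = 0.937) or without control 4 (0.405). The 8 Pax3 probe sets at or above the median of all probe sets were all lower with no overlap between the groups. The share of all probe sets at or above that median with such a separation was not counted.

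**Figure D2:**
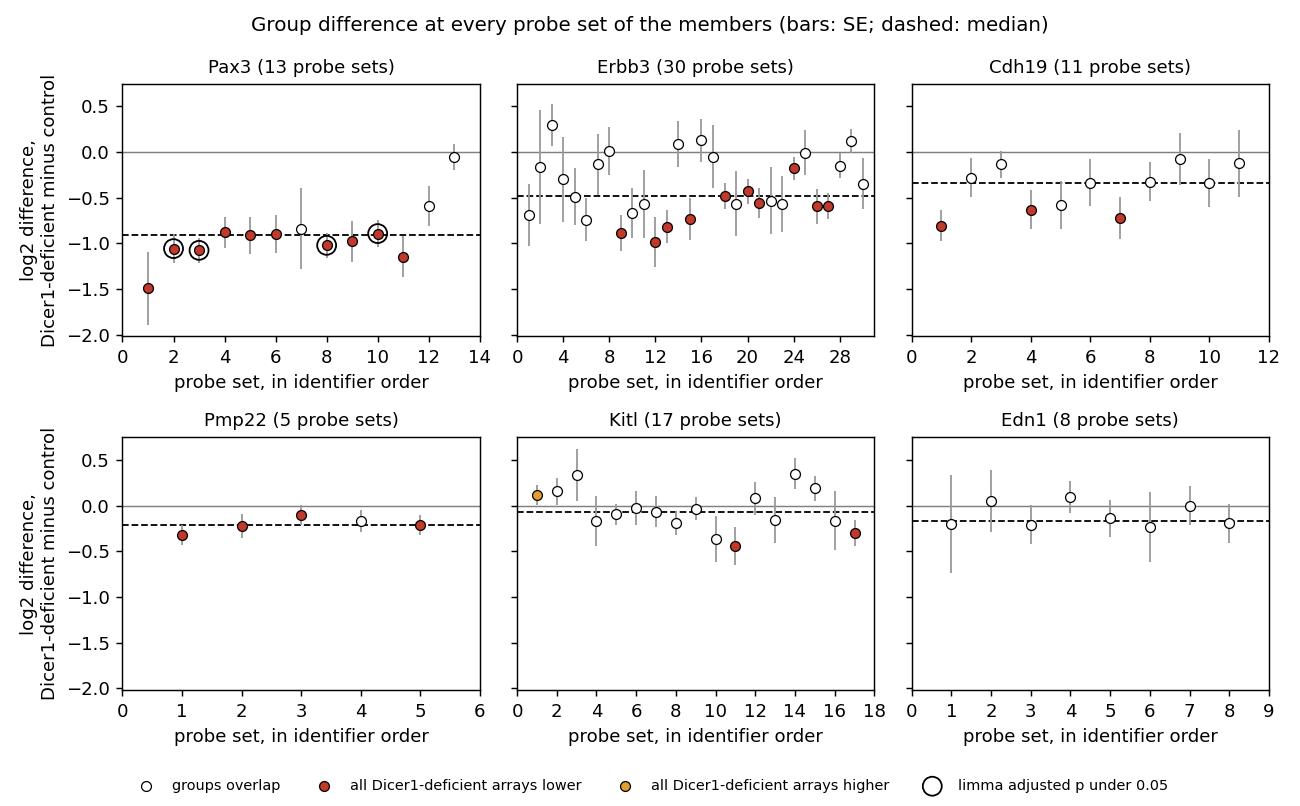
Log2 difference, Dicer1-deficient minus control (vertical axis, bars are SE), at each probe set of the 6 genes in the order of the probe set identifiers (horizontal axis), with the gene's median dashed. Red points have every Dicer1-deficient array below every control array, the 1 amber point (Kitl) every one above, and rings mark limma adjusted p under 0.05, which 4 probe sets of Pax3 carry; Pax3, Cdh19 and Pmp22 lie below 0 throughout while Kitl and Edn1 scatter around 0.

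Erbb3, on chromosome 10, encodes the neuregulin receptor on which Schwann cell precursors depend for survival. Its brightest probe set (10373494) read 8.92, 9.28 and 9.31 in Dicer1-deficient arrays, against 9.79, 9.79, 9.59 and 9.86 in control arrays. The groups did not overlap, and here the lowest array was Dicer1-deficient array 1 and not array 3, as it was for Pax3. The means were 9.17 ± 0.22 (SD, n = 3) in Dicer1-deficient and 9.76 ± 0.11 (SD, n = 4) in control arrays. The log2 fold change was -0.59 (SE 0.13, 95% interval -0.89 to -0.29), that is 1.50-fold lower, with a limma adjusted p of 0.0669.

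On the mean of its 30 probe sets Erbb3 read 6.31, 6.34 and 6.22 in Dicer1-deficient arrays, against 6.66, 6.72, 6.67 and 6.68 in control arrays. Both groups were tight and well apart. Its log2 fold change was -0.39 (SE 0.07, limma adjusted p = 0.0170), so on this mean Erbb3 fell, and was 1.31-fold lower. On the median of its probe sets Erbb3 did not pass (-0.60, limma adjusted p = 0.0807), where Pax3 did (-0.97, 0.0161). The call on the mean was less stable than that of Pax3. It held without control 1 (limma adjusted p = 0.0471) or control 4 (0.0037, where 17% of all genes passed, 10.3% on the low side). It ended without control 2 (0.0759), control 3 (0.0592) or Dicer1-deficient array 1 (0.0741), 2 (0.0634) or 3 (0.0942).

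Of the 30 Erbb3 probe sets 25 had negative and 5 positive differences, where 50.3% of all probe sets were negative. Values ran from -0.99 to 0.30 with a median of -0.49. Of the 17 at or above the median of all probe sets, 15 were lower, 9 of them without overlap. The matching shares among all probe sets at or above that median were not counted. Of the 30, 10 were lower without overlap, where 6.62% of all probe sets were. None passed limma on its own over all probe sets, and 11 were lower at an unadjusted p of 0.05, against 5.78% of all probe sets. The smallest p was that of 10373480, which read 6.09, 6.17 and 6.18 in Dicer1-deficient arrays, against 6.65, 6.82, 7.00 and 7.38 in control arrays (log2 fold change -0.82, limma adjusted p = 0.107). The groups were separate there, with control 4 the highest. Without control 4 its difference was -0.68 and it passed (limma adjusted p = 0.0456). In that setting 2.3% of all probe sets passed and 1.11% on the low side. The probe set that departed most from the rest, 10373470, was higher by 0.71 relative to the other Erbb3 probe sets, which did not pass (diffSplice adjusted p = 0.936).

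**Figure D3:**
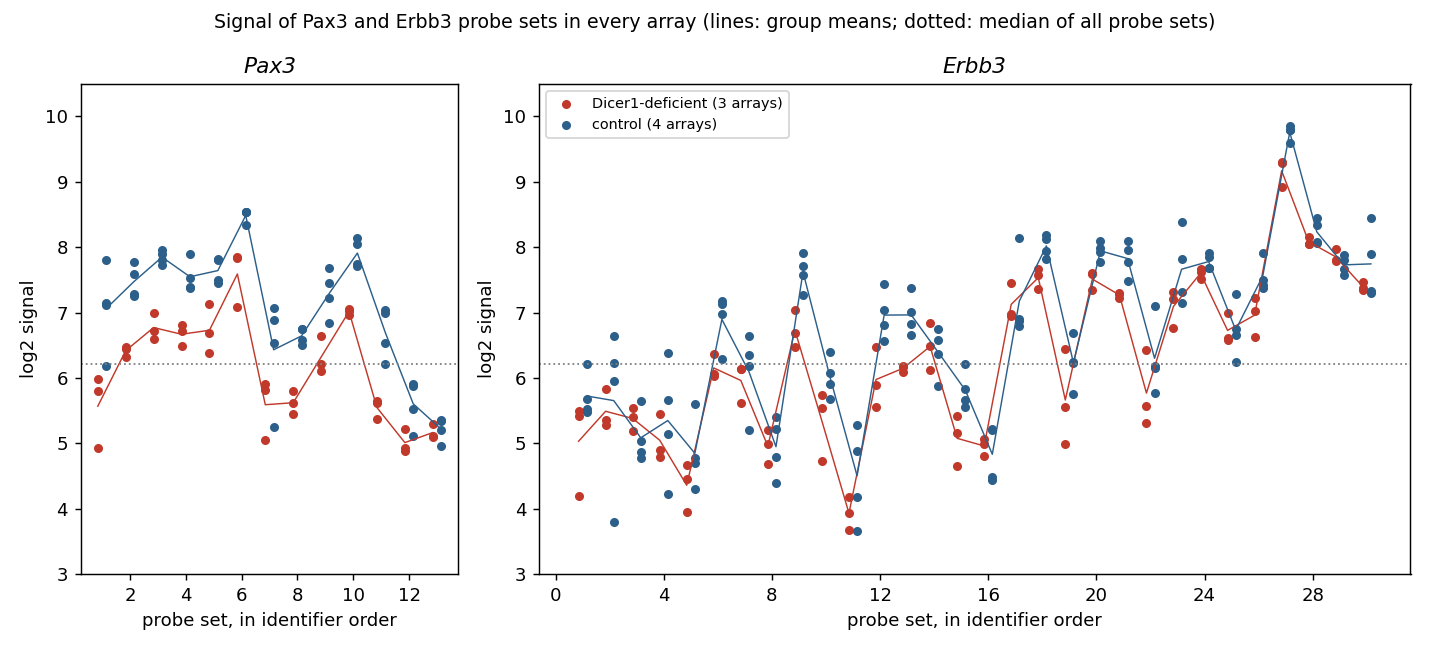
Log2 signal (vertical axis) of each probe set of Pax3 and Erbb3 in identifier order (horizontal axis) in the 3 Dicer1-deficient arrays (red) and 4 control arrays (blue), with lines through the group means and the median of all probe sets dotted. For Pax3 the red line lies below the blue one along the whole gene and meets it only near the last, dim probe set, and for Erbb3 the lines cross at the 5 probe sets with positive differences.

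Cdh19, on chromosome 1, the gene of the adhesion molecule cadherin 19, was lower on average but its groups overlapped. At the brightest probe set (10357109) it read 8.63, 8.18 and 8.60 in Dicer1-deficient arrays, against 8.36, 8.91, 8.58 and 9.38 in control arrays. Control 4 was the highest array, and Dicer1-deficient arrays 1 and 3 lay inside the control range. The log2 fold change was -0.34 (SE 0.25, 95% interval -0.91 to 0.24, limma adjusted p = 0.665), and -0.14 without control 4. On the mean of its 11 probe sets control 4 was instead the lowest control: the values were 6.19, 5.84 and 6.25 in Dicer1-deficient arrays, against 6.52, 6.62, 6.63 and 6.18 in control arrays. That log2 fold change was -0.40 (limma adjusted p = 0.164), and without control 4 Cdh19 passed at -0.50 (limma adjusted p = 0.0170), where 17% of all genes passed and 10.3% on the low side. Each of the 11 probe sets had a negative difference, where 50.3% of all probe sets did. In 3 of the 11 the groups did not overlap, where 6.62% of all probe sets were separate on the low side. The smallest p and the largest departure from the rest were those of the dim probe set 10357104, at 4.24 ± 0.15 (SD, n = 3) in Dicer1-deficient and 5.05 ± 0.26 (SD, n = 4) in control arrays (log2 fold change -0.81, limma adjusted p = 0.094), and that departure did not pass (diffSplice adjusted p = 1). Without control 4 the difference at 10357104 was -0.93 and it passed (limma adjusted p = 0.0150), as did 10357108 (-0.83, 0.0221). In that setting 2.3% of all probe sets passed and 1.11% on the low side.

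Pmp22, on chromosome 11, was slightly lower on average in the Dicer1-deficient arrays and did not pass with either summary. Its brightest probe set (10376953) read 11.62, 11.59 and 11.63 in Dicer1-deficient arrays, against 11.64, 11.72, 11.70 and 11.81 in control arrays. The groups did not overlap, but the gap between them was smaller than the spread of the controls. The log2 fold change was -0.10 (SE 0.09, 95% interval -0.31 to 0.10, limma adjusted p = 0.734), that is 1.07-fold lower. With quantile normalization applied again it was -0.03 at the brightest probe set (limma adjusted p = 0.947). All 5 probe sets were lower, where 50.3% of all probe sets were, with differences from -0.32 to -0.10. In 4 of the 5 the groups did not overlap, where 6.62% of all probe sets were separate on the low side. On the mean of the 5 the log2 fold change was -0.20 (SE 0.08, limma adjusted p = 0.199). The largest difference and the largest departure from the rest were those of 10376951, which read 9.38, 9.40 and 9.34 in Dicer1-deficient arrays, against 9.67, 9.80, 9.65 and 9.66 in control arrays (limma adjusted p = 0.294). These array values were tight within each group and separate between them.

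Of the ligand genes, Kitl on chromosome 10 encodes the KIT ligand that melanoblasts need to migrate and survive. Its brightest probe set (10366057) read 11.28, 11.28 and 11.38 in Dicer1-deficient arrays, against 11.45, 11.37, 11.28 and 11.54 in control arrays. All 3 Dicer1-deficient arrays lay inside the control range. The log2 fold change was -0.10 (95% interval -0.33 to 0.13, limma adjusted p = 0.794), and averaged over 17 probe sets it was -0.05 (95% interval -0.22 to 0.13, limma adjusted p = 0.889). Along the gene 11 probe sets were lower and 6 higher, where 50.3% of all probe sets were lower. Without overlap 2 were lower and 1 higher, against 6.62% and 7.35% of all probe sets. None passed limma, and no direction was common to the probe sets. The smallest p and the largest departure were those of 10366063, at -0.45 (limma adjusted p = 0.475).

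Edn1, on chromosome 13, encodes endothelin 1, a peptide best known from blood vessel endothelium. Its brightest probe set (10404788) read 6.85, 6.91 and 6.27 in Dicer1-deficient arrays, against 6.56, 7.10, 6.79 and 6.81 in control arrays. The groups overlapped, and Dicer1-deficient array 3 was the lowest array. The log2 fold change was -0.14 (SE 0.19, 95% interval -0.58 to 0.30, limma adjusted p = 0.87), and it turned to 0.0653 without Dicer1-deficient array 3. Of its 8 probe sets 6 were dimmer than the overall median. By direction 5 were lower and 3 higher, where 50.3% of all probe sets were lower. None separated the groups, where 6.62% of all probe sets did on the low side and 7.35% on the high side. The smallest p was that of 10404786 (-0.21, limma adjusted p = 0.803) and the largest departure that of 10404787 (0.22, diffSplice adjusted p = 1). At the brightest probe set the intervals of Cdh19, Pmp22, Kitl and Edn1 include 0, which does not show that their levels were equal. On the mean of probe sets those of Kitl and Edn1 include 0, while those of Cdh19 (-0.71 to -0.08) and Pmp22 (-0.38 to -0.03), not adjusted for the number of genes, do not.

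The 6 genes did not share 1 pattern over the arrays. For each, the closest profiles were sought among the brightest probe sets of all other named genes, by the root mean square difference of mean-centred log2 values over the 7 arrays. Pax3 was closest to Tfap2a (0.16), which encodes the transcription factor AP-2 alpha of neural crest and surface ectoderm, and to the homeobox gene Alx1 (0.20). Tfap2a read 7.94, 7.78 and 7.23 in Dicer1-deficient arrays, against 8.61, 8.82, 8.79 and 8.36 in control arrays, so that array 3 was the lowest for both genes. The lowest control differed: control 4 for Tfap2a (8.36) and control 1 for Pax3 (8.34, with control 4 at 8.54). The group differences of Pax3 and Tfap2a (-0.90 and -0.99) enter this measure of likeness. Erbb3 was closest to Chpf (0.05), an enzyme gene of chondroitin synthesis, and Aoc2 (0.09). Chpf read 8.90, 9.18 and 9.20 in Dicer1-deficient arrays, against 9.71, 9.73, 9.50 and 9.65 in control arrays. The closest to Cdh19 were Fmnl1 (0.08) and Zfp595 (0.11), both with groups that did not pass, and those closest to Edn1 were Fstl4 (0.08) and Xkr9 (0.10). Pmp22 and Kitl varied least, with SDs over the 7 arrays of 0.07 and 0.10 against 0.27 for Edn1, and were closest to Srp68 (0.02) and Sec23a (0.03), and to Bicc1 (0.03) and Odf4 (0.04).

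Of 19 listed neural crest and melanocyte transcription factors 7 were measured. At the brightest probe set 1 passed, Tfap2a, whose difference was -0.99 (limma adjusted p = 0.047). On the mean of probe sets Tfap2a (-0.78, limma adjusted p = 0.0109) and the mesenchyme regulator gene Twist1 (-0.56, 0.0424) fell, while Tfap2b (0.81, 0.0437) and Sox9 (0.33, 0.0461) rose. The genes that passed thus did not move in 1 direction. Sox10, the gene of the partner of PAX3, and their target gene Mitf were not analysed here.

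Of 19 listed melanocyte enzyme and melanosome genes 5 were measured and none passed limma with either summary. At the brightest probe set all 5 differences were negative with a median of -0.60, and on the mean of probe sets 4 of the 5 were. Mreg, a melanosome transport gene, had -0.87 (limma adjusted p = 0.249) and Mlph, the gene of melanophilin, -0.60 (0.281). RPE makes these genes too.

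Of 36 other listed Schwann cell genes 11 were measured, and none passed at the brightest probe set. There 8 of the 11 differences were negative with a median of -0.10, and on the mean of probe sets 5 of the 11 were, with a median of 0.04. On that mean 1 passed and it rose: Fabp7, a fatty acid binding protein gene of Schwann cell precursors and also of retinal glia, at 0.68 (limma adjusted p = 0.00369). At the brightest probe set Nab1 had -0.31 (limma adjusted p = 0.23) and Lama4 -0.28 (0.257). In both, every Dicer1-deficient array lay below every control array there, as in 7.02% of all genes. On the mean of probe sets their groups overlapped. The neurotrophin receptor gene Ngfr had -0.07 (limma adjusted p = 0.949) at the brightest probe set and the calcium-binding protein gene S100b -0.22 (0.763). The mean level of the 11 genes ran from 9.34 to 9.48 in Dicer1-deficient arrays, against 9.36 to 9.67 in control arrays, with control 4 the highest, so the groups overlapped where Pax3 and Erbb3 did not.

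Genes that act with Erbb3 and with the ligands gave no call. Of 18 listed neuregulin and ErbB signalling genes 7 were measured, with a median difference of 0.03 and none past limma with either summary. Erbb2, the coreceptor of Erbb3, read 9.23 ± 0.33 (SD, n = 3) in Dicer1-deficient and 9.44 ± 0.07 (SD, n = 4) in control arrays (log2 fold change -0.21, limma adjusted p = 0.668), and Erbb4 had 0.19 (0.698). Of 10 listed microRNA machinery genes 2 were measured, Dicer1 and Tnrc6c (-0.09, 0.838), and neither passed. Of 14 listed KIT and endothelin signalling genes 2 were measured and neither passed: Gna11, a G protein subunit gene, at -0.18 (limma adjusted p = 0.47) and Ecel1, the gene of an enzyme related to endothelin converting enzyme, at 0.21 (0.794). Kit and the endothelin receptor genes were not analysed here.

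**Figure D4:**
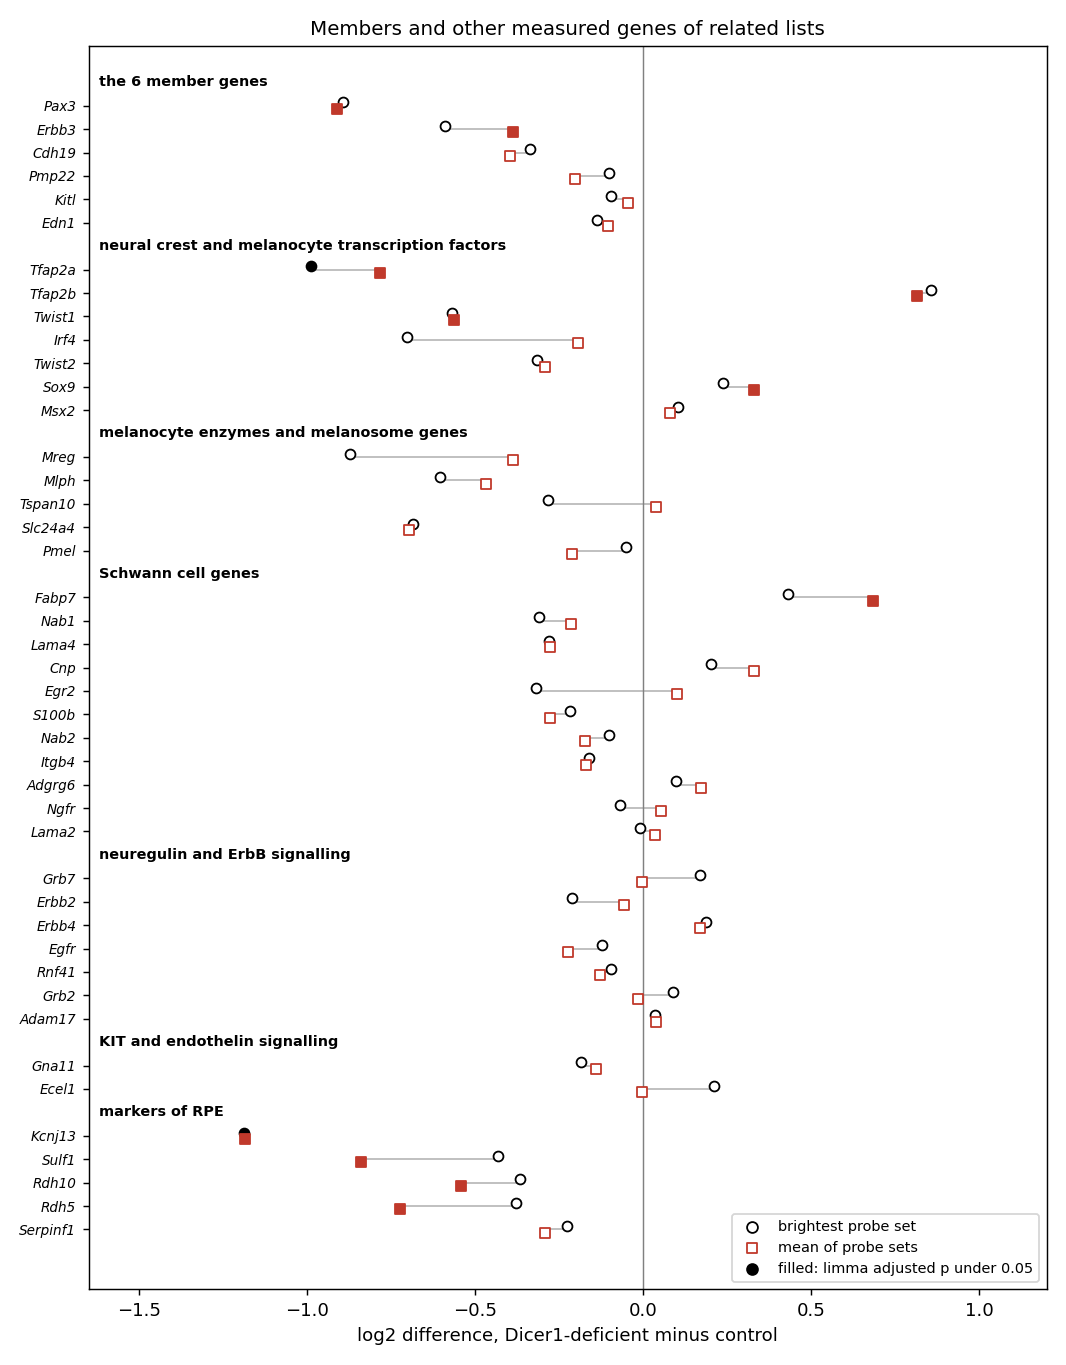
Log2 difference, Dicer1-deficient minus control (horizontal axis), of the 6 genes and of every other measured gene of 5 related lists and of the RPE markers, with circles for the brightest probe set and squares for the mean of probe sets, filled where limma adjusted p was under 0.05. Pax3 and Erbb3 are filled on the mean of probe sets only, among the Schwann cell genes Fabp7 alone is filled, and 4 of the 5 RPE markers are filled on the low side.

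Whether the label fits could be checked in part only. Of 7 listed melanocyte markers only Pax3 was in the table, which holds few genes outside chromosomes 1, 10, 11, 12 and 13. Of 9 Schwann cell markers 6 were in it, Erbb3 and Cdh19 among them. Markers of other cells moved alongside. The mean level of 5 RPE markers ran from 10.96 to 11.06 in Dicer1-deficient arrays, against 11.46 to 11.60 in control arrays, and 1 of the 5 fell at the brightest probe set, the potassium channel gene Kcnj13 at -1.19 (limma adjusted p = 0.0051), and 4 of the 5 on the mean of probe sets. The mean level of 9 of 13 fibroblast and scleral markers ran from 11.51 to 11.74 in Dicer1-deficient arrays, against 11.86 to 11.97 in control arrays, and 0 of the 9 passed limma at the brightest probe set, where Omd had -0.92 (adjusted p = 0.0587) and Fmod -0.60 (0.124) and these 2 alone had an unadjusted p under 0.05, and both fell on the mean of probe sets (-0.57, 0.042 and -0.82, 0.024). The 6 Schwann cell markers, Erbb3 and Cdh19 included, ran from 8.43 to 8.73 in Dicer1-deficient arrays, against 8.58 to 9.10 in control arrays. These ranges overlapped, and control 4 was the highest. At the brightest probe set 5 of the 6 differences were negative (51.9% of all genes) and none passed limma (2.33%). On the mean of probe sets 3 of the 6 were negative (54.4%), and Erbb3 fell while Fabp7 rose (5.86% of all genes passed). The levels of the endothelial (3 of 12 measured), pericyte (1 of 6), macrophage (3 of 8), photoreceptor (3 of 11), retinal neuron (6 of 8), surface epithelial (6 of 6) and glial (2 of 6) markers overlapped between the groups. Among these, at the brightest probe set, Nr2e1 of the neuronal list rose (0.69, limma adjusted p = 0.0155) and Tfap2a, listed there too, fell, while of the epithelial list Perp rose (0.91, 0.0164) and Krt10 fell (-0.73, 0.00707). On the mean of probe sets the calls of Nr2e1 (0.45, 0.0758) and Krt10 (-0.19, 0.36) ended, those of Tfap2a and Perp (1.03, 0.00229) held, and Tfap2b, also on the neuronal list, rose. Of the macrophage list Cd68 was lower without overlap with both summaries (-0.46, limma adjusted p = 0.17 and -0.30, 0.0864) and did not pass. Of all genes 7.02% and 8.65% were lower without overlap. Ptprc (0.03) and Lyz2 (-0.02) of that list overlapped at the brightest probe set. The part of these other cells in the lower Pax3 and Erbb3 was not tested.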

How the data were processed

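Total RNA of dissected RPE was extracted with the miRNeasy kit and biotin-labelled, as the labels' protocols state, and read on Affymetrix arrays. The authors deposited 1 table of log2 signals. RMA and Partek 6.6 are named, with no roles, per the submitters' processing notes. No source used here gives a genome build or filter. No further normalization was applied, and all arrays carry 1 date label, so no batch could be tested. The table held 65535 rows, with several probe sets per gene. Of these 53644 had 1 gene symbol, 877 several, and 11014 are unnamed here. Symbols were updated through RefSeq (4321 current, 698 updated, 13 kept unmatched), giving 5017 genes, 4918 of them on chromosomes 1, 10, 11, 12 and 13. Order along a gene is that of probe set identifiers, which was not checked against the transcript. No detection calls were used.

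Groups came from the labels, and replicate numbers are names in accession order. Main values use each gene's probe set with the highest mean. Dicer1-deficient minus control was fitted in limma (lmFit, then eBayes; two-sided p adjusted by Benjamini-Hochberg over every gene or every probe set, threshold 0.05, 2.82 prior and 5 residual degrees of freedom). Evenness along a gene was tested with limma's diffSplice. On simulated data the limma fits recovered known changes, but diffSplice called too many genes when probe sets of a gene had unequal noise, so each probe set minus the mean of its gene's others was also fitted with limma, an alternative chosen after seeing the data. The 95% intervals are from limma and are not adjusted for the number of genes.

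The 6 genes and all lists were chosen with earlier results of these data known. Named are the 6 genes, up to 3 measured genes per list with the smallest p, the 2 closest profiles per gene, per gene the probe sets with the smallest p and the largest departure, and Dicer1. Ngfr, S100b, Sox9 and probe sets 10355917, 10355929 and 10357108 were added after values were seen. The software was limma 3.58.1 under R 4.3.3, with tables and plots made by pandas 2.3.3 and matplotlib 3.10.9 in Python 3.11.15.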

Additional observations from a re-analysis of the deposited data

Results flagged for a closer look

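In the control arrays of 60 named genes, each with both summaries, 4 of 120 sets of 4 arrays held an array far from the other 3 by Dixon's test, and chance flags about 1 in 20. For Pax3 at its brightest probe set, control 1 was low at 8.34 beside 8.53 to 8.54, a gap of 0.978 of the range, and it still lay above every Dicer1-deficient array. Pde6g, a photoreceptor gene, was low in control 1 at its brightest probe set (4.37 beside 6.13 to 6.41, a gap of 0.864 of the range). Control 4 was high for Ptprc, a leukocyte gene, on the mean of probe sets (6.41 beside 6.11 to 6.15, 0.865 of the range). Control 4 was also high for Odf4, a gene close in profile to Kitl, on that mean (4.40 beside 4.14, 0.987 of the range).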

How the results depend on the processing

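Over 19 alternatives each, the log2 fold changes of Pax3 (-1.03 to -0.64), Erbb3 (-0.66 to -0.39), Cdh19 (-0.50 to -0.14), Pmp22 (-0.22 to -0.03) and Kitl (-0.14 to -0.03) kept their sign. With 1 array left out, that of Edn1 ran from -0.25 (without Dicer1-deficient array 2) to 0.0653 (without Dicer1-deficient array 3), a reversal. The number of the 6 genes past limma was 0 in the main comparison, 2 on the mean of probe sets, 1 on their median (Pax3) and 3 on the mean without control 4. It was 2 with genes above the median signal only, 1 with a variance trend (Erbb3), 2 with array weights and 2 at adjusted p of 0.1. It was 0 with each array left out at the brightest probe set, and 1 to 3 on the mean of probe sets. Of all genes 117 passed, against 294, 176 and 853 on the mean, the median and the mean without control 4, 76 without moderation, 385 with array weights, 213 at adjusted p of 0.1, and 33 to 260 with 1 array left out. With genes above the median signal only, a smaller set whose share was not counted, 143 passed. With a variance trend 138 of all genes passed. The split was 71 higher and 46 lower in the main comparison, and 338 and 515 on the mean without control 4. Of all probe sets 570 passed, against 269 without moderation, 1631 with array weights, 1039 at adjusted p of 0.1 and 144 to 1236 with 1 array left out. Of the 84 probe sets 4 passed, against 2, 11 and 7 in those 3 settings and 0 to 11 with 1 array left out. The count of genes among the 6 with uneven differences was 0, and 0 to 1 with 1 array left out. The cause of these shifts was not tested. No paired analysis was possible because the labels give no replicate numbers. Dim probe sets, of which Edn1 has 6 of 8, limit what can be seen.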
